A study of Mus musculus with 73 samples.

Results

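The 3 genes Foxa1, Foxa2 and Foxa3 encode the FoxA transcription factors, and their own loci were described in mouse liver by DNA methylation and by binding of the liver factor HNF6. The loci were taken as windows of the mm9 build: 50000 bp of chromosome 12 around Foxa1 (chr12:58620000-58670000), 40000 bp of chromosome 2 around Foxa2 (chr2:147850000-147890000) and 40000 bp of chromosome 7 around Foxa3 (chr7:19585000-19625000). Members were features whose start lay in a window, with no measured value in the rule. They comprised 215 of 817277 tiles of 100 bp from reduced representation bisulfite sequencing (RRBS), 21 of 33302 FoxA sites of 400 bp from whole-genome bisulfite sequencing (WGBS), and 29 of 26205 HNF6 peaks from chromatin immunoprecipitation (ChIP). By locus, the RRBS tiles numbered 75 for Foxa1, 59 for Foxa2 and 81 for Foxa3.

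FoxA proteins bind DNA through a winged-helix forkhead domain and can bind sites in closed chromatin, for which they are known as pioneer factors. In the liver they act in specification of the organ and later at enhancers of hepatocyte genes, together with factors such as HNF6 (Onecut1), a homeodomain protein. Cre recombinase deletes the sequence between loxP sites, so a floxed gene ("L") keeps its sequence until Cre acts, whereas a germline null ("-") lacks its targeted sequence in every cell. RRBS reads DNA cut by MspI at CCGG and so covers mainly CpG-rich sequence.

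The study asked what loss of FoxA factors in development or in adulthood does to methylation and factor binding. RRBS was made from hepatocyte DNA of 27 liver samples in 10 groups. The age series held 4 controls and 4 developmental double nulls, 1 of each at 20 days, 8 weeks, 4 months and 6 months; the control genotype is given only as control. Developmental depletion of Foxa1 and Foxa2 was by Alfp Cre, a Cre transgene, per the labels of the WGBS and HNF6 samples. At 8 weeks, 2 livers were FoxA1L/L;FoxA2L/+ and 2 were FoxA1L/+;FoxA2L/+, both depleted in development, so that 1 Foxa2 allele or 1 allele of each gene remained. Triple nulls (FoxA1, FoxA2 and FoxA3) were taken 7 days (9 weeks of age, n = 3) or 13 days (12 weeks, n = 2) after Cre induction. Their controls, of genotype FoxA1L/L;FoxA2L/L;FoxA3-/-, were taken 7 days (n = 3) or 13 days (n = 2) after GFP induction, so the germline Foxa3 null was shared by all 10 libraries of these 4 groups. At 12 weeks, 3 double nulls depleted in adulthood and 2 livers given AAV GFP had undergone partial hepatectomy. WGBS had 2 libraries each of Foxa1L/L;2L/L without Cre, with Alfp Cre, and with AAV8 Cre from the hepatocyte-specific Tbg promoter injected at 8 weeks for 1 month. The first 2 groups were 8 weeks old, so the AAV8 Cre group was the older one and age differs with adult deletion there. HNF6 ChIP had 3 libraries without Cre, 2 with Alfp Cre and 2 with AAV Cre. The labels do not say whether the samples of a group were separate animals, so p-values measure the spread between these samples.

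The promoters of the 3 genes show how CpG-rich the gene starts are and where MspI can cut there. The RefSeq promoters (250 bases before to 50 after the gene start, GRCm38.p6, all on the minus strand, 5′ to 3′) are printed below with each CCGG in capitals. They lay at chr12:57546062-57546361 for Foxa1, at chr2:148045899-148046198 for the most CpG-rich of 3 listed starts of Foxa2, and at chr7:19023490-19023789 for Foxa3. These positions belong to another build than the tiles and cannot be compared with theirs.
Foxa1 promoter: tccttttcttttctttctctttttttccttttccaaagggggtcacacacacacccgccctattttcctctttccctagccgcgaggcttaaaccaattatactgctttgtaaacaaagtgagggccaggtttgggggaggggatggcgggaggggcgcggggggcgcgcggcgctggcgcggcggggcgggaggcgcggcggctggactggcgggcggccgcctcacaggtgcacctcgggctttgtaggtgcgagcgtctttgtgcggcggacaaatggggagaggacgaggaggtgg
Foxa2 promoter: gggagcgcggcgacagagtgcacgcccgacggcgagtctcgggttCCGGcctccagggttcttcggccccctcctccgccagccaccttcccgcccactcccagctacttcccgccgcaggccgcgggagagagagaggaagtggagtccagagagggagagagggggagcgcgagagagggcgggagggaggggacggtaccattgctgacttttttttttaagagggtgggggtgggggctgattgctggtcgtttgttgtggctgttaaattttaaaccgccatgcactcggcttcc
Foxa3 promoter: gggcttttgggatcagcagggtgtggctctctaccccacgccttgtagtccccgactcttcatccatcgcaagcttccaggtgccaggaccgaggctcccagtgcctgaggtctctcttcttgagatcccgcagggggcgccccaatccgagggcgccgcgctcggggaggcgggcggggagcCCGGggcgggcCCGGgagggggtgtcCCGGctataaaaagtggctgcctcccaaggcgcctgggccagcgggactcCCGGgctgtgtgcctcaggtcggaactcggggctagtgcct
The Foxa1 promoter held 26 CpG and 0 CCGG, the Foxa2 promoter 23 CpG and 1 CCGG, and the Foxa3 promoter 22 CpG and 4 CCGG. The remaining Foxa2 starts, not printed, held 12 CpG with 1 CCGG and 13 CpG with 0 CCGG. Of 32851 RefSeq mouse promoters, the median held 7 CpG, and 52.8% held at least 1 CCGG (the motif reads the same on both strands). In the same annotation the nearest protein-coding neighbours were Mipol1 and Ttc6 for Foxa1, Pax1 and Sstr4 for Foxa2, and Irf2bp1 and Sympk for Foxa3.

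Libraries had a value at 445198 to 622668 tiles (54.5% to 76.2% of the table), and no coverage is given, so read depth per level cannot be stated and levels carry no interval. A tile without a value is called missing below; it can lack reads because the sequence is gone or because too few reads fell there. In the age-series controls most tiles of the 3 loci were hardly methylated. Mean levels were below 20% at 35 of 54 Foxa1 tiles, 38 of 44 Foxa2 tiles and 37 of 57 Foxa3 tiles with a value in all 4 controls, against 31.0% of all 409137 such tiles. Median levels were 5.84% for Foxa1, 2.29% for Foxa2 and 5.44% for Foxa3, against 83.4% over the table.

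A 6300 bp stretch of the Foxa3 locus was missing from every Foxa3-/- library and present in nearly every other library. It spanned 15 consecutive tiles of the table, from chr7:19593901-19594000 to chr7:19600101-19600200, and 0 of the 15 had a value in any of the 10 Foxa3-/- libraries, GFP controls included. Among the 17 other libraries, 12 of the 15 tiles had a value in 17 of 17, chr7:19595101-19595200 in 16, chr7:19594201-19594300 in 15 and chr7:19600101-19600200 in 14. The floxed genes Foxa1 and Foxa2 lost no tile in these libraries by the same test. The 2-sided Fisher's exact test of the number of libraries with a value, adjusted over 178370 tiles, called 17 of 28 tested Foxa3 tiles as present in fewer Foxa3-/- libraries, against a background of 0.511%, and 0 of 12 Foxa1 and 0 of 10 Foxa2 tiles. The adjusted p was 0.000129 for the 12 tiles with 0 of 10 against 17 of 17. It was 0.00265 for the tile at 19594201, 0.000780 for that at 19595101 and 0.00770 for that at 19600101. Beyond the stretch, chr7:19609101-19609200 and chr7:19619901-19620000 had 0 of 10 against 13 of 17 each (adjusted p = 0.0243, Fisher's exact test). Against the 5 hepatectomy libraries alone, 0 tiles of 101630 passed adjustment, where the smallest possible p was 0.000333, and 17 of 39 tested tiles of the 3 loci had an unadjusted p under 0.05, against 6212 of all tiles tested.

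The levels that the missing stretch carried in the 17 other libraries differed along it. At chr7:19597601-19597700 they ran from 0% through a median of 1.33% to 5.03%, and at chr7:19599701-19599800 from 50.4% through 60.0% to 69.1%. The stretch thus held both hardly methylated and intermediate sequence. The next tile, chr7:19600201-19600300, had a value in all 27 libraries. There the Foxa3-/- libraries ran from 56.8% to 90.0% (median 74.4%) and the others from 88.2% to 97.0% (median 91.5%), with overlap.

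**Figure D1:**
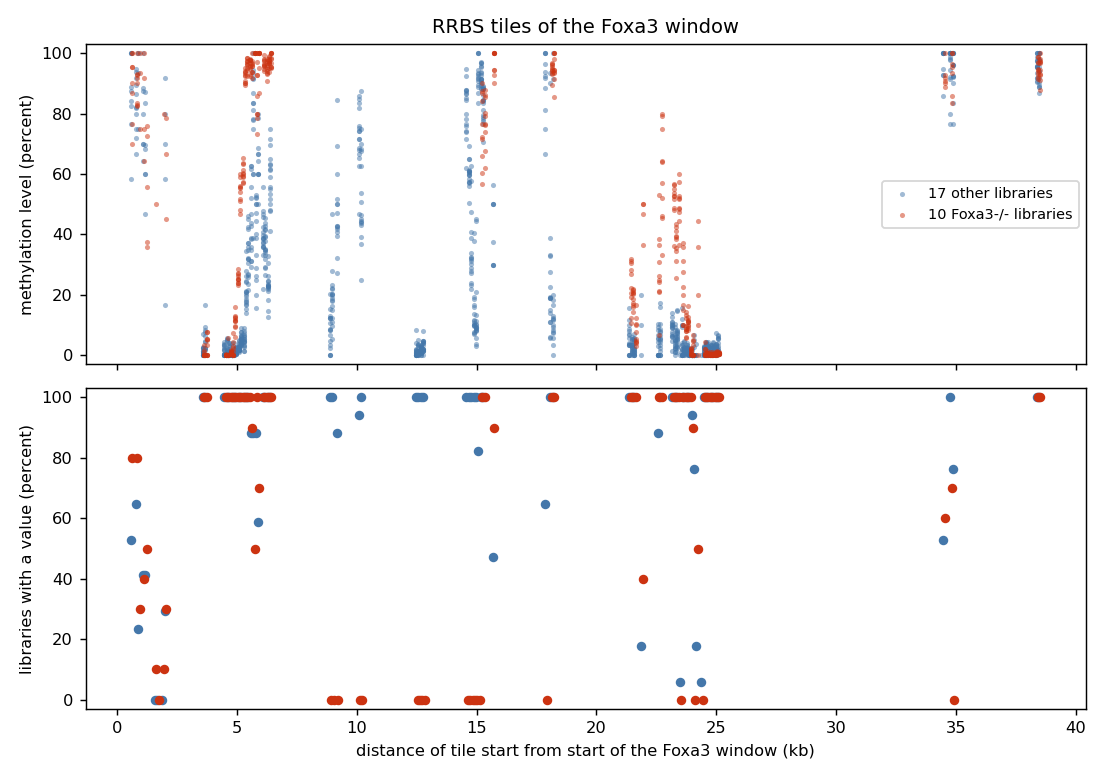
RRBS tiles of the Foxa3 window by distance of the tile start from the window start (kb); the upper panel gives the methylation level (percent) in each library and the lower panel the percent of libraries with a value, for the 10 Foxa3-/- libraries (red) and the 17 others (blue). Red points are at 0% of libraries over the 15 tiles of the missing stretch, and some tiles on both sides of it have red points well above the blue ones. The tile directly after the stretch has red points mostly below the blue ones.

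Tiles missing with the Foxa3-/- genotype were not confined to the gene. By a rule of a value in at least 12 of the 17 other libraries and in none of the 10, 562 of 489344 tiles (0.115%) were missing: 17 of 64 Foxa3 tiles, 0 of 58 Foxa1 tiles and 0 of 49 Foxa2 tiles. With a value required in all 17, it held for 12 of 54 Foxa3 tiles and 0.0452% of all tiles. The 562 tiles included 269 on chromosome 7, 197 on chromosome 3 and 39 on chromosome 12. They fell into 296 runs of consecutive tiles, of which the Foxa3 stretch held the most tiles, and the next was 11 tiles over 10300 bp at chr7:18984101-18994400. Runs of fewer tiles in sparser sequence spanned more bases, such as 10 tiles over 73400 bp at chr7:17749001-17822400. From 16 to 21 Mb of chromosome 7, 248 of 2052 tiles (12.1%) were missing, against 21 of 30175 (0.0696%) on the rest of that chromosome. The 248 include those of the Foxa3 window, and missing tiles also lay beyond these bounds. Examples are 3 of 37 tiles from 21 to 22 Mb and 3 of 31 from 23 to 24 Mb. The reverse rule, a value in all 10 and in none of the 17, held for 8 of 411725 tiles (0.00194%) and for none at the 3 loci. Foxa3 genotype, mouse line, experiment and agent cannot be told apart in this comparison.

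Many tiles on both sides of the missing stretch were more methylated in the Foxa3-/- libraries. The tile directly after the stretch, described above, had a lower median there. Over the 41 Foxa3 tiles with a value in all 27 libraries, the mean level was 39.5% ± 1.59 (SD, n = 3) and 39.7% ± 0.159 (n = 3) in the day 7 controls and triple nulls, and 42.1% ± 0.547 (n = 2) and 41.4% ± 1.04 (n = 2) in those of day 13. In the other 6 groups the mean lay between 16.0% and 18.5%. The single tile chr7:19590301-19590400, ahead of the stretch, read 92.9%, 90.6% and 93.3% in the day 7 GFP controls and 94.2% and 93.9% in those of day 13. It read 92.3%, 90.2% and 90.2% in the day 7 triple nulls and 95.1% and 89.3% in those of day 13. It read 3.17% and 4.39% in the hepatectomy GFP controls and 7.52%, 5.57% and 4.61% in the hepatectomy nulls. Over all 17 libraries outside the Foxa3-/- groups this tile ran from 1.35% through a median of 4.62% to 9.13%. The sets thus did not overlap, but the share of all tiles for which this held was not counted.

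The change built up over 6 neighbouring tiles. From the tile starting at 19589901 to that starting at 19590401, the GFP controls with Foxa3-/- averaged 10.2%, 26.6%, 54.0%, 60.7%, 93.0% and 96.3% (n = 5). The hepatectomy GFP controls averaged 0.512%, 0.617%, 2.05%, 3.44%, 3.78% and 23.6% at the same tiles (n = 2). All 6 tiles were higher in the Foxa3-/- controls. On the far side of the stretch, chr7:19607701-19607800 ran from 33.3% through 60.6% to 80% over the 10 Foxa3-/- libraries and from 0% through 5.56% to 17.4% over the other 17. At chr7:19608201-19608300 the ranges were 36.2% to 56.8% (median 52.6%) and 1.43% to 13.9% (median 9.26%). Neither tile overlapped between the sets, but both were named because a test of part of these libraries called them. The share of all tiles without such overlap was not counted.

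Tested with limma on percent levels, adjusted over 442253 tiles, 18 of 46 Foxa3 tiles were higher in the Foxa3-/- GFP controls than in the hepatectomy GFP controls (background 0.0427%), and 0 were lower (background 0.0217%). No Foxa1 (of 56) or Foxa2 (of 47) tile passed. The difference gives the day 7 and day 13 means equal weight. For the tile starting at 19590301 it was 89.4 points (SE 3.94, adjusted p = 2.63e-10). The median difference was 13.4 points at Foxa3, against 0.739 over all tiles. The other 10 tiles called, beside the 6 of the gradient and those starting at 19607701 and 19608201, were as follows. Those starting at 19590501, 19590601, 19591101, 19591201 and 19591301 averaged 95.5% to 97.1% against 22.5% to 44.5%. That at 19600701 averaged 97.5% against 40%, that at 19606501 18.7% against 1.4%, that at 19608301 34.3% against 3.34%, that at 19608401 48.4% against 5.83%, and that at 19608801 10.4% against 0.960%. With the spread taken from the groups compared only, 8 tiles passed, of which 6 were among the 18.

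The nulls gave the same direction: 22 of 43 Foxa3 tiles were higher in the triple nulls than in the hepatectomy double nulls (limma, background 0.183%), 0 were lower (background 0.0695%), and 0 of 53 Foxa1 and 0 of 48 Foxa2 tiles passed. Besides most tiles named for the controls, those starting at 19590801 (88.9% against 32.4%), 19591401 (98.3% against 65.2%), 19603101 (93.3% against 16.4%), 19603201 (94.6% against 7.50%), 19607601 (30.5% against 2.92%) and 19608701 (10.7% against 0.382%) were higher in the nulls. Outside the window from 16 to 21 Mb of chromosome 7, tiles called in the same 2 fits were mostly lower: 29 lower and 3 higher of 1494 in the controls, and 40 lower and 7 higher of 1465 in the nulls. Genotype, hepatectomy, agent, mouse line and experiment cannot be told apart in either comparison.

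At Foxa1 and Foxa2, the floxed genes, tiles were missing from the developmental nulls in 2 short stretches. Of the tiles with a value in all 4 age-series controls, 9 of 54 at Foxa1 and 8 of 44 at Foxa2 were missing in at least 2 of the 4 developmental nulls, against 0 of 57 at Foxa3 and 2.54% of all tiles. At Foxa1, 8 of the 9 lay in chr12:58643301-58644600, which holds 11 tiles; the other was chr12:58637301-58637400. At Foxa2, 7 of the 8 lay in chr2:147869701-147870800, which also holds 11 tiles; the other was chr2:147874401-147874500. The reverse, a value in all 4 nulls and none in at least 2 controls, held for 1 of 40 Foxa1, 0 of 35 Foxa2 and 2 of 59 Foxa3 tiles (1.88% of all tiles). Whether the 2 stretches are the floxed exons was not tested, because no mm9 annotation was at hand.

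The number of tiles with a value in the Foxa1 stretch was 11 in each of the 4 controls and 5, 8, 3 and 5 in the developmental nulls of 20 days, 4 months, 6 months and 8 weeks. Both FoxA1L/L;FoxA2L/+ livers had 8 and both FoxA1L/+;FoxA2L/+ livers had 11. The day 7 and day 13 libraries had 11 each, triple nulls included, and the hepatectomy nulls had 11, 11 and 10. In the Foxa2 stretch, the controls had 9, 11, 9 and 9 and the developmental nulls 4, 5, 3 and 3 in the same order of ages. The livers that kept 1 Foxa2 allele had 10 each, both of the double heterozygotes had 10, and all other libraries had 9 to 11. The stretches were bounded by tiles with a value in all 4 controls and missing in at least 2 of these developmental nulls. The low counts of the developmental nulls against these controls restate that choice and are no further evidence of it. Among the groups outside that choice, the FoxA1L/L;FoxA2L/+ livers lay below the rest at Foxa1. In the Foxa2 stretch the day 13 triple nulls had 9 and 9, against 11 and 11 in their controls. Hepatectomy nulls had 9, 9 and 10 against 11 and 10, and day 7 triple nulls 9, 11 and 10 against 10, 11 and 10. The day 13 and hepatectomy nulls also had values at fewer tiles of the table than their controls. Whether adult deletion lowered these counts was not tested. Of the tiles with a value in all 4 controls, 4 of 54 at Foxa1, 0 of 44 at Foxa2 and 2 of 57 at Foxa3 were missing in at least 1 liver with 1 Foxa2 allele (5.73% of all tiles). In the double heterozygotes the counts were 1, 0 and 1 (4.53% of all tiles). The tiles chr12:58644001-58644100 and chr2:147870101-147870200 were missing in all 4 developmental nulls.

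**Figure D2:**
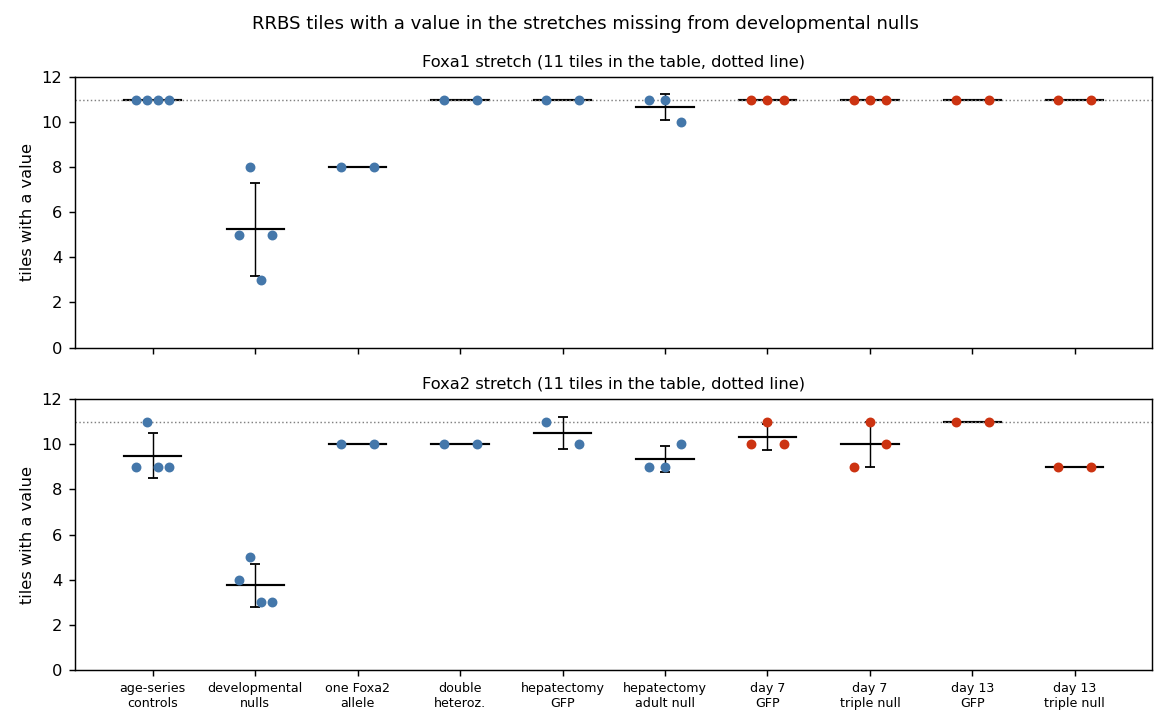
Number of RRBS tiles with a value (of 11, dotted line) in the Foxa1 and the Foxa2 stretch missing from developmental nulls, for each library of the 10 groups; horizontal bars are group means and error bars SD, and Foxa3-/- groups are red. The developmental nulls, whose missing tiles set the bounds of the stretches, sit at 3 to 8 for Foxa1 and at 3 to 5 for Foxa2. The adult nulls sit at 9 to 11.

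Adult deletion left no comparable gap. Of tiles with a value in all 3 day 7 controls, 0 of 56 at Foxa1, 1 of 49 at Foxa2 and 2 of 48 at Foxa3 were missing in at least 1 of 3 triple nulls, against 4.92% of all tiles. The counts were 6 of 63, 6 of 52 and 5 of 50 at day 13 (13.5% of all tiles) and 8 of 63, 2 of 52 and 1 of 68 after hepatectomy (11.3%). A tile that keeps a value shows only that some reads remained, so the share of cells that recombined was not measured. Over all experiments, Fisher's exact test of 12 nulls against 11 controls called 0 of 149121 tiles, with 2255 at an unadjusted p under 0.05, of which 2 of 43 tested at the 3 loci. Within the age series the smallest p that 4 against 4 libraries allow is 0.0286, so single tiles could not pass adjustment.

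Among tiles that kept a value, 3 at Foxa2 and 1 at Foxa1 were more methylated in the developmental nulls. The levels at chr2:147864101-147864200 were 12.0%, 7.50%, 2.00% and 16.2% in the controls of 20 days, 4 months, 6 months and 8 weeks, and 46.8%, 33.3%, 49.2% and 53.9% in the nulls of the same ages. The nulls lay above the controls at each age, without overlap, by 36.4 points (SE 3.14, adjusted p = 1.07e-05, limma over 369462 tiles). At chr2:147864801-147864900 the controls read 3.17%, 3.73%, 2.55% and 0%, and the nulls 19.2%, 15.7%, 9.48% and 20.0% (adjusted p = 0.000421). At chr2:147864201-147864300 the controls read 2.97%, 3.70%, 0.758% and 0.935%, and the nulls 19.7%, 6.93%, 10.2% and 18.9% (adjusted p = 0.00787). These Foxa2 tiles lay within 800 bp of sequence. At Foxa1, chr12:58635801-58635900 read 2.67%, 0%, 8.33% and 6.67% in the controls and 19.3%, 9.52%, 14.8% and 15.4% in the nulls (adjusted p = 0.0377). In each of the 4 tiles the lowest null lay above the highest control, but the test of these same libraries chose the tiles. The lack of overlap is therefore no further support, and its share over all tiles was not counted.

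These 4 of 129 tiles in the age series were all the calls at the 3 loci, against 0.176% of all tiles higher and 0.0625% lower; 0 of 56 Foxa3 tiles passed and 0 were lower. With age as a replicate block, since each age held 1 control and 1 null, 8 tiles passed, 3 at Foxa1 and 5 at Foxa2, all higher, and 2149 of all tiles were higher and 1018 lower. With the spread taken from the 8 libraries of the age series alone, 0 passed, with adjusted p from 0.393 to 0.735. At Foxa1 the next tile, chr12:58635901-58636000, read 2.98%, 2.86%, 2.94% and 7.12% in the controls and 16.5%, 6.16%, 10.6% and 15.8% in the nulls (adjusted p = 0.0507). The largest difference at Foxa1 was at chr12:58651401-58651500, at 66.9% ± 3.61 in the controls and 90.1% ± 8.18 in the nulls (SD, n = 4 each, adjusted p = 0.272 in limma). At Foxa3 it was at chr7:19591101-19591200, at 43.1% ± 8.30 and 34.6% ± 10.7 (adjusted p = 0.688 in limma). Median differences were 0.571 points at Foxa1, 0.516 at Foxa2 and -0.0140 at Foxa3, against 0.280 over all tiles.

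**Figure D3:**
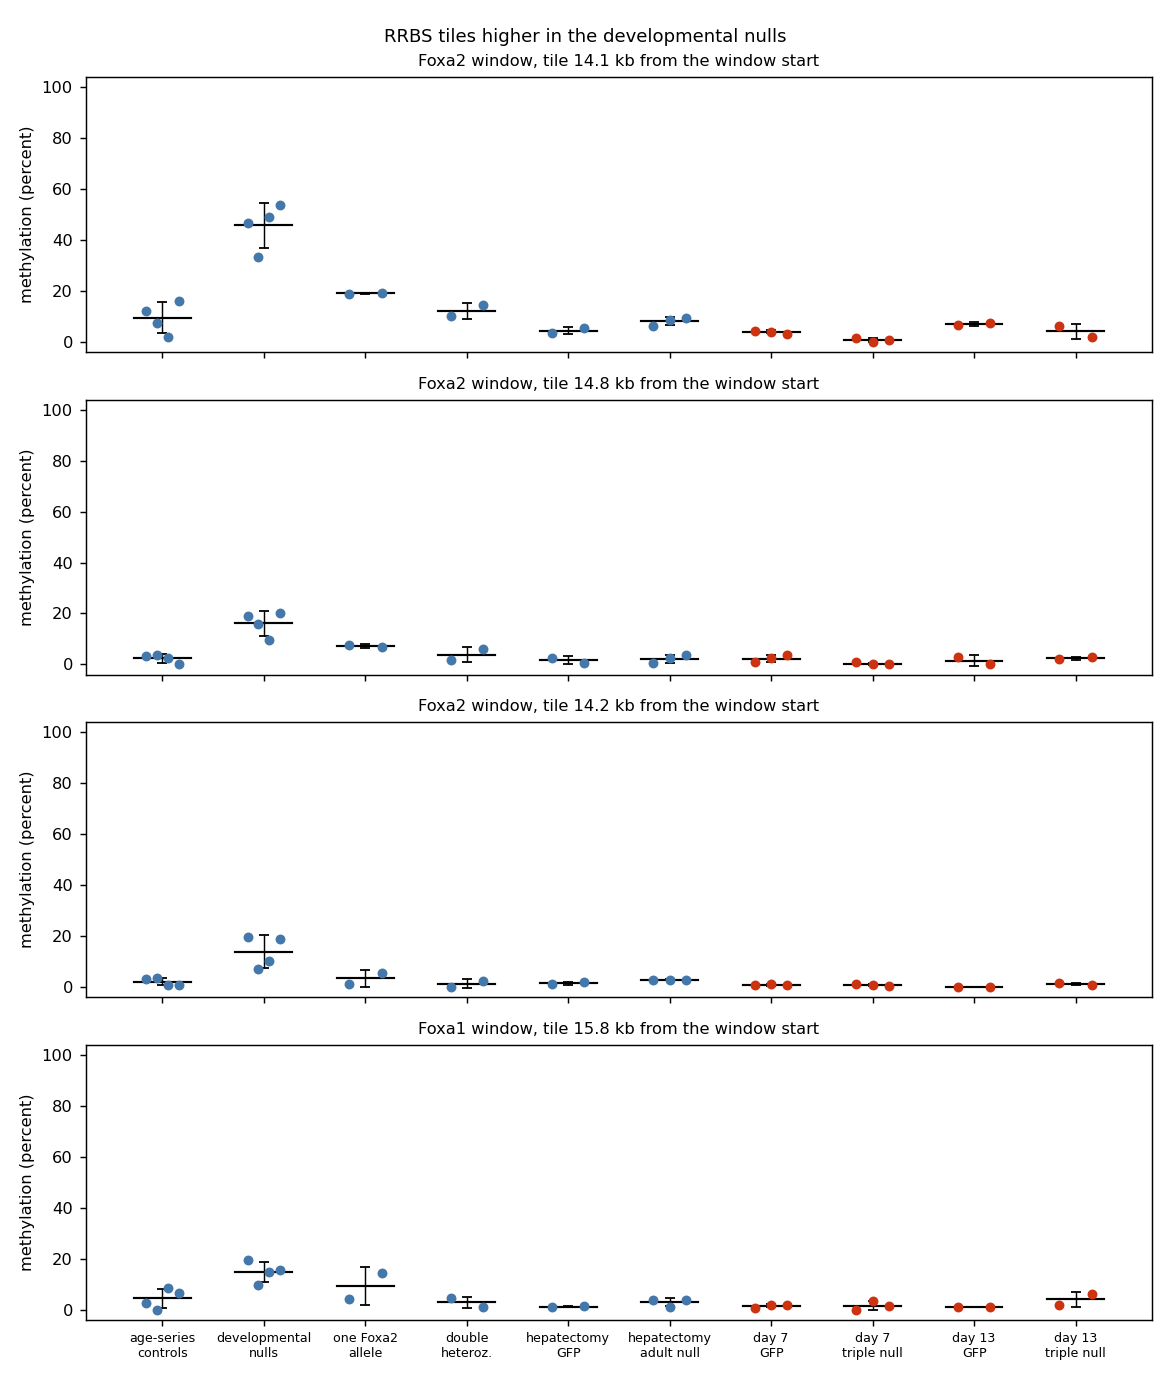
Methylation level (percent) of the 4 tiles called in the age series, for each library of the 10 groups; horizontal bars are group means, error bars SD, and Foxa3-/- groups are red. In the top panel the developmental nulls sit at 33.3% to 53.9%, above the libraries of every other group.

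The Foxa2 tile chr2:147864101-147864200 was lower in each group other than the developmental nulls. It read 19.0% and 19.2% in the livers with 1 Foxa2 allele, and 10.0% and 14.3% in the double heterozygotes. It read 6.40%, 8.72% and 9.29% in the hepatectomy nulls and 3.50% and 5.36% in their controls. In the 10 day 7 and day 13 libraries it ran from 0% to 7.41%. The difference between the developmental effect and the effect of adult double deletion after hepatectomy was 32.7 points at this tile (SE 5.14, adjusted p = 0.0704 in limma). It did not pass, nor did any other of 129 tiles of the 3 loci (8 at an unadjusted p under 0.05, against 19381 of 362766 over all tiles), against 0.00303% of all tiles.

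WGBS covered the same part of the Foxa1 locus. The FoxA site chr12:58635723-58636122, which overlaps 4 RRBS tiles including the one called, read 0.748% and 0.637% in the controls, 20.7% and 11.1% with Alfp Cre, and 2.45% and 2.00% with AAV Cre. Both Alfp Cre libraries lay above the other 4, but the share of all sites with this order was not counted. The developmental difference had an adjusted p of 0.0974 in limma over 33302 sites, and 0.0334 with both tables fitted together. The site chr12:58629084-58629483 read 59.0% and 73.1%, then 83.9% and 79.3%, then 82.1% and 80.6% in the same order (adjusted p = 0.213 with Alfp Cre and 0.575 with AAV Cre, limma). At Foxa2, chr2:147852484-147852883 read 50.0% in both controls and 87.9% and 62.5% with Alfp Cre (adjusted p = 0.184, limma). It was the 1 member on the authors' deposited list of hyper-methylated sites, which was made from the same libraries and is no independent support.

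Of the 21 FoxA sites, 0 passed limma in the developmental comparison (background 4.42% in either direction), with 3 at an unadjusted p under 0.05, against 6639 of all 33302 sites. In the adult comparison 0 of 13 passed (background 0.0%), with 1 at an unadjusted p under 0.05, against 2299 of 28654. The adult table holds no Foxa2 site, so adult loss was not measured there by WGBS. Most other sites were nearly unmethylated in the 3 groups. At Foxa1, the sites starting at 58639281, 58639740, 58644727 and 58647038 read 0.260% to 2.24% over the 6 libraries. The site starting at 58642750 read 10.7% and 14.8% in controls, 0% and 20.0% with Alfp Cre, and 15.9% and 27.6% with AAV Cre. At Foxa2, the sites starting at 147851271, 147865794, 147866027, 147871155, 147872391, 147872675 and 147872716 read 0% to 3.17% in controls and 0% to 5.41% with Alfp Cre. At Foxa3, sites starting at 19591868, 19593007, 19595531, 19595841 and 19601474 read 0% to 16.4%, and that starting at 19610805 read 40% to 55.7%.

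Adult deletion changed no RRBS tile of the 3 loci past the threshold. In limma, 0 of 150 tiles passed at day 7 (background 0.00416%), 0 of 148 at day 13 (0.00747%) and 0 of 172 after hepatectomy (0.00186%), with 6, 5 and 5 at an unadjusted p under 0.05. Over all tiles the counts at that level were 19703 of 480615, 20675 of 442000 and 22529 of 482859. The largest differences at day 7 were at chr12:58651401-58651500 (53.5% ± 5.05 in nulls, 39.6% ± 12.7 in controls), chr2:147855501-147855600 (82.4% ± 2.68, 72.1% ± 10.2) and chr7:19607601-19607700 (30.8% ± 5.79, 17.3% ± 9.32; SD, n = 3). At day 13 they were at chr12:58637101-58637200 (0% and 45.0% in nulls, 51.1% and 60.0% in controls), chr2:147850001-147850100 (means 3.27% and 14.8%) and chr7:19607701-19607800 (63.1% and 77.2%). After hepatectomy they were at chr12:58637101-58637200 (means 30.7% in nulls, 52.4% in controls), chr2:147869601-147869700 (18.3% and 28.5%) and chr7:19590701-19590800 (60.0% and 84.8%). In these comparisons the nulls and controls of a tile often overlapped, and leaving out the second day 13 control gave 1 call.

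Livers that kept an allele, all 8 weeks old, were compared with the age-series controls. Of those, 1 was also 8 weeks old and the others were of 20 days, 4 months and 6 months, so age differs in part with genotype. With 1 Foxa2 allele, 18 of 149 tiles were lower and 0 higher in limma (background 5.9% lower and 0.106% higher): 6 of 50 at Foxa1, 4 of 44 at Foxa2 and 8 of 55 at Foxa3. The median difference over all tiles was -1.59 points, against -1.90, -1.52 and -1.42 at Foxa1, Foxa2 and Foxa3. The Foxa1 tile chr12:58643301-58643400, inside the stretch missing from developmental nulls, read 0% and 0%, against 22.1%, 22.5%, 24.2% and 16.1% in the controls (adjusted p = 0.00103). Over the tiles of that stretch with a value, means were 5.02% and 2.85% in the 1-allele livers and 5.73% to 12.8% in the age-series controls. They were 1.21% to 4.80% in the day 7, day 13 and hepatectomy GFP controls, so low means also occurred in livers given GFP. The Foxa2 tile next to the other stretch, chr2:147869601-147869700, read 5.93% and 3.95%, against 29.8%, 31.0%, 24.9% and 28.2% (adjusted p = 0.0476). Neither tile overlapped between the groups compared, but both were named because the test of these same libraries called them. How many of all tiles lacked such overlap was not counted. Also lower were the tiles starting at 147869701 (1.38% against 21.1%), 58643401 (1.95% against 15.0%) and 58649501 (9.26% against 26.8%). The other 13 fell by 2.07 to 4.11 points from control means of at most 4.55%; they start at 58646301, 58646801, 58647001, 147870601, 147874701, 19589501, 19589701, 19609501, 19609601, 19609701, 19609901, 19610001 and 19610101. With either library of the 1-allele group left out, 2 of the 18 still passed, and without the first 1 further tile passed, higher, at Foxa1. With the spread taken from the groups compared only, 0 passed.

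In the FoxA1L/+;FoxA2L/+ livers, 13 of 153 tiles were lower than in the age-series controls and 0 higher (limma, background 5.97% lower and 0.12% higher), against a median of -1.52 points over all tiles. The tile at 147869601 read 2.47% and 3.59% (adjusted p = 0.0327, limma). The other larger differences were at 147869701 (1.42% against 21.1%), 58649401 (6.36% against 20.2%) and 58649501 (12.7% against 26.8%). The other 9 fell by 2.12 to 3.97 points and start at 58646301, 58646601, 58646701, 19589501, 19589701, 19609501, 19609601, 19609701 and 19610101. With either library left out, 2 passed, 1 higher and 1 lower, of which 1 was among the 13. With the spread taken from the groups compared only, 0 passed. The tile starting at 147869601 ran from 1.66% through 5.31% to 8.54% over the 10 Foxa3-/- libraries, which include GFP controls with both Foxa2 alleles. It read 22.6% and 34.4% in the hepatectomy controls, 0%, 24.6% and 30.3% in their nulls, and 25.0%, 0%, 33.3% and 14.3% in the developmental nulls.

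The age series itself varied most at Foxa3, by age. The 2 libraries of 20 days, 1 control and 1 developmental null, were compared with the 6 older ones with genotype as a term. In limma 6 of 56 Foxa3 tiles, 2 of 34 Foxa2 tiles and 1 of 39 Foxa1 tiles were higher at 20 days (background 1.5%) and 0 were lower (background 0.596%). The tile chr7:19603201-19603300 read 100.0% in the control and 91.3% in the null of 20 days. It read 16.7%, 10.0% and 7.41% in the older controls and 0%, 8.33% and 12.0% in the older nulls (adjusted p = 3.73e-09). Its neighbour chr7:19603101-19603200 read 93.5% and 90.2% at 20 days and 5.81% to 33.0% in the 6 older libraries (adjusted p = 6.54e-07). The young libraries lay above the older ones in both genotypes at these 2 tiles. The test of these same libraries chose the tiles, so this order is no further support, and its share over all tiles was not counted.

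The same 2 tiles were high in the Foxa3-/- libraries at 9 and 12 weeks. The tile starting at 19603101 ran from 89.5% through 94.6% to 96.6% over the 10, and from 5.81% through 19.0% to 38.7% over the 15 others without the 20-day pair. That starting at 19603201 ran from 85.5% through 94.3% to 100.0% and from 0% through 10.0% to 20.0%. A test of the 10 against the 15 was not made, and the share of all tiles with such separate ranges was not counted.

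**Figure D4:**
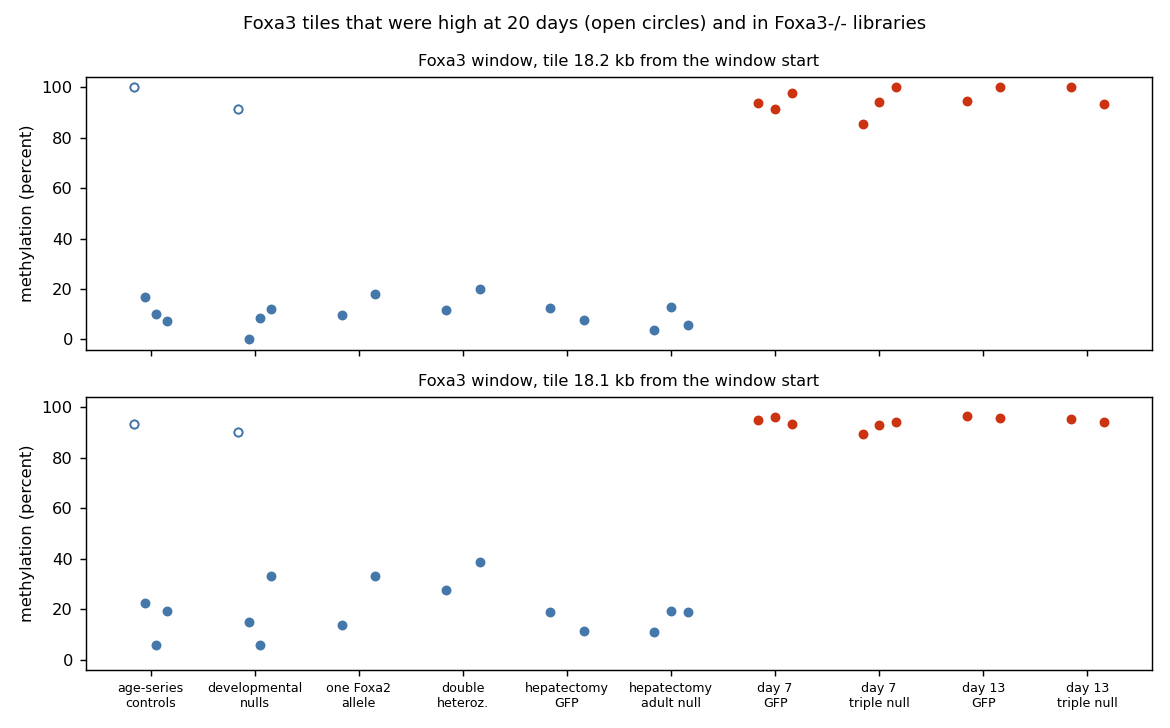
Methylation level (percent) of the 2 Foxa3 tiles with the smallest adjusted p for 20 days against older, for each library of the 10 groups; open circles are the 20-day libraries and red points the Foxa3-/- libraries. The 20-day and Foxa3-/- libraries sit at 85.5% or above, and all others at 38.7% or below.

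The other Foxa3 tiles higher at 20 days lay in the stretch missing from Foxa3-/- libraries. That at 19600001 averaged 44.7% against 10.4% (adjusted p = 1.27e-05), that at 19599901 39.2% against 12.0% (0.000215), that at 19599801 60.0% against 33.3% (0.0491) and that at 19597501 6.28% against 0.675% (0.00514). At Foxa2, the tile at 147873201 averaged 44.9% against 22.5% (0.00686). The Foxa2 tile at 147864401 (6.89% against 2.53%, 0.0407) and the Foxa1 tile at 58644701 (8.70% against 2.82%, 0.0293) each rested on 1 of the 2 young libraries, and the difference without it was 0.677 and 1.07 points. The largest uncalled difference at Foxa1 was at 58651601 (48.5% against 67.2%, adjusted p = 0.0780 in limma).

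HNF6 bound at 8 regions of the 3 loci, merging peaks that overlap by 1 bp. At Foxa1, 1 region (chr12:58638720-58639142) had a peak in 4 of 7 lists: controls 1 and 2, 1 of 2 Alfp Cre libraries and 1 of 2 AAV Cre libraries. At Foxa2, the region chr2:147872666-147873092 had a peak in all 7 lists, with the authors' fold enrichments of 16.8, 12.0 and 5.51 in controls, 7.54 and 3.67 with Alfp Cre, and 18.9 and 31.2 with AAV Cre. Its peak ranked 1180 of 1188 in the second Alfp Cre list and 307 of 5767 in the first control list. It overlaps 3 of the FoxA sites described above, which were nearly unmethylated.

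The region chr2:147850052-147850270 had a peak in the 3 control lists (folds 21.5, 21.8 and 8.59) and in no null list. That at chr2:147865894-147866216 had one in controls 1 and 2 (13.3 and 12.9) and in both AAV Cre lists (16.0 and 5.47), and in no Alfp Cre list. Single peaks lay at chr2:147851528-147851614 (control 2) and at chr2:147870731-147870961 (second AAV Cre library), the second of which starts inside the Foxa2 stretch missing from developmental nulls. At Foxa3, chr7:19601389-19601803 had peaks in controls 1 and 2 (14.0 and 13.5), 1 Alfp Cre list (6.91) and both AAV Cre lists (17.4 and 19.6). The region chr7:19603203-19603646, which overlaps the tile that was high at 20 days, had peaks in controls 1 and 2 (16.5 and 11.7) and both AAV Cre lists (22.5 and 15.4), and in no Alfp Cre list. Lists differed in length from 1188 to 5767 peaks, the 2 Alfp Cre lists being among the 3 shortest, and the AAV Cre lists came from another version of the peak caller. Folds and absences were therefore not compared between groups. Of the 8 regions, 7 had a peak in any of 3 control lists, 3 in any of 2 Alfp Cre lists and 6 in any of 2 AAV Cre lists. The same counts over all HNF6 regions were not made, so no loss of binding can be read from them.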

How the data were processed

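RRBS, WGBS and HNF6 ChIP values of mouse liver were used; HNF4a and H3K27ac samples were not analysed here. Reads were trimmed with Trim Galore 0.3.3 and aligned with BSMAP 2.74 on mm9, per the submitters' processing notes. The step from reads to tiles and sites is not given in the sources used. The authors deposited methylation as a fraction per tile or site, without coverage, and fractions were multiplied by 100 to give percent. The authors' 8 average columns were not used. In the adult WGBS table the column headed as the first Alfp Cre library equals control 2 at all 28654 shared sites and was not used. Peaks were called with MACS 2.1.1.20160309 (controls, Alfp Cre) or MACS 1.4.3 (AAV Cre), per the file headers. The deposited lists give a fold enrichment ratio with −log10 of the p-value or, for AAV Cre, a score of the p-value, used to rank peaks within a list.

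Levels were tested with limma 3.58.1 in R 4.3.3 (group means, spread shared over RRBS groups, variance trend) on tiles with a value in every library compared, with Benjamini-Hochberg adjustment over all of them at 0.05. WGBS used the 4 libraries of the developmental table, or all 6 on shared sites for adult loss. Missing tiles were tested with SciPy 1.17.1 over tiles with a value in at least 8 and at most all but 5 libraries. The fits were tested on simulated data. The comparisons with hepatectomy groups, of developmental with adult effects (hepatectomy) and of 20 days with older, and the rules on missing tiles, were added after seeing the data. Named are tiles and sites past 0.05, tiles called missing (above 12 in a window: the first, the last and those with the fewest values), the largest difference per window and comparison, and all sites and peaks. The members and lists were chosen with earlier results of these data known.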

Additional observations from a re-analysis of the deposited data

Results flagged for a closer look

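Groups of 4 age-series libraries were examined at the tiles named, and for the mean level and number of tiles with a value of each window. Of these 38 groups, 4 had 1 library far from the other 3, with a gap to the nearest above 0.829 of the group's range. In groups not chosen by their values, chance alone marks about 1 in 20. All 4 were 20-day libraries at Foxa3 tiles that had been named because the 20-day libraries differed there, so they restate that choice and are no further evidence of it. The control of 20 days read 100.0% at the tile starting at 19603201, and the developmental null of 20 days read 91.3% there. The 20-day control read 40.4% at the tile starting at 19599901, and the 20-day null read 44.3% at that starting at 19600001.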

How the results depend on the processing

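No tile or site that a test called changed direction under the alternatives run. The untested mean levels of nulls and controls changed order at day 13 at Foxa1 (19.0% and 19.4%, then 20.6% and 19.9% over tiles with a value in all 27 libraries) and after hepatectomy at Foxa3 (26.2% and 26.6%, then 16.1% and 16.0%). Depth is unknown, so a coverage minimum of 10 reads could not be run. Taking the spread from the groups compared only gave 0 tiles called in the age series, 0 for 1 Foxa2 allele, 0 for the double heterozygotes and 8 for the Foxa3-/- against hepatectomy GFP controls, 6 of them among the 18 first called. A minimum difference of 20 points left 1 call in the age series, 2 for 1 Foxa2 allele and 1 for the double heterozygotes. Tiles with levels of 5% to 95% gave 1 call for 1 Foxa2 allele and 0 for the double heterozygotes. The logit scale gave 23 calls for the double heterozygotes and 4 for 20 days. Tiles with a value in at least 2 libraries per group gave 7 in the age series, 6 higher and 1 lower, the latter at Foxa1. The joined WGBS tables gave 1 developmental call. Presence in Foxa3-/- libraries tested against the hepatectomy libraries gave 0. Tiles missing in developmental nulls numbered 15 at Foxa1 and 10 at Foxa2 for at least 1 null (9.70% of all tiles), 3 and 4 for at least 3 (0.572%), and 1 at each for all 4 (0.0518%). Over tiles with a value in all 27 libraries, the age-series means were 8.35% (control) and 10.6% (null) at Foxa2 and 18.3% (null) at Foxa3. Leaving out 1 library gave 3 to 7 calls in the age series (7 without the null of 4 or 6 months), 2 to 17 for 1 Foxa2 allele, 2 to 14 for the double heterozygotes, 0 to 1 at day 13, 0 to 1 for developmental minus adult effects, and 4 to 10 missing tiles at Foxa1 (4 without the 6-month null). The Foxa1 call starting at 58635801 was lost in 5 of these fits. In the age series the block stands for age, which the labels give for both groups. Deviations of libraries of the same age correlated at 0.366, 0.109, 0.149 and 0.0600 (20 days, 4 months, 6 months and 8 weeks). The best partner was the library of the same age except at 4 months, where it was that of 6 months. The values at 4 months and 8 weeks thus do not show pairing beyond the shared age. Correlations were lower in the other experiments. A replicate block gave 8 calls in the age series and 0 at day 7, at day 13, after hepatectomy and in both WGBS comparisons. The causes of these shifts were not tested.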
